A study of Arabidopsis thaliana with 12 samples.

Results

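The comparison set RNA from sorted endodermal cells against RNA from whole roots, both from wild-type Arabidopsis thaliana of the accession Col-0, at 6 days after the seedlings were exposed to light. It used 6 of the 12 libraries of the series, 3 of sorted endodermis and 3 of whole root, chosen by their labels, and all loci of the count table. Roots for sorting were digested to protoplasts (cells without walls), passed through a fluorescence-activated cell sorter for the endodermal population and frozen, whereas whole roots were frozen at harvest. RNA came from a micro-scale version of the extraction kit for sorted cells and from the standard version for whole roots, and the strand-specific library kit was the same. All seedlings were plated on Murashige and Skoog medium with sucrose under long days. The labels name neither the fluorescent reporter line nor its promoter, so the cells that the gate took in are known only through their transcripts. Cell type, wall digestion, sorting and RNA kit differ together between the groups and cannot be told apart. The other 6 libraries were made in the same manner from the myb36-1 mutant, 3 of sorted endodermis and 3 of whole root, and are used here only as separate libraries for the same difference.

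The endodermis is the innermost cortical layer of the root and surrounds the stele, which holds xylem, phloem and pericycle. Young endodermal cells form the Casparian strip, a lignin band that seals the space between cells, and older ones add a coat of suberin, a wax-like polyester. The transcription factors SHORT-ROOT (SHR) and SCARECROW (SCR) specify the layer, and MYB36 turns on the genes that build the strip.

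The sorted libraries held 19652079, 24274637 and 17721913 counts and the whole-root libraries 22722091, 21549388 and 20928259. Libraries of a group had rank correlations of at least 0.974, and those of different groups of at most 0.929. Levels below are CPM (counts scaled to a common library size) after TMM scaling, a correction for library composition, and log2 fold changes are sorted endodermis over whole root. Of 19747 loci tested, 13570 (68.7%) were called at an adjusted p under 0.05, 6587 higher (33.4%) and 6983 lower (35.4%) in sorted endodermis, and the median log2 fold change was -0.01. The 3 sorted libraries lay all above the 3 whole-root libraries for 35.8% of loci and all below for 37.9%. A call alone therefore says little about a gene list, and the lists below are read by the size of their changes beside these shares. Among called loci, 3417 were higher and 4700 lower by over 2-fold, 1161 and 2333 by over 4-fold, and 294 and 839 by over 16-fold. When libraries were scaled by their totals only, 5115 loci were higher and 8276 lower, 38.2% of calls higher against 48.5% with TMM, because that scaling moved the median of all loci by -0.23 on the log2 scale. The sources used here do not give whether strand was used in counting, so the values of genes that overlap an antisense locus are uncertain. Among the genes named below these are CASP1, CASP5, PER64, ESB1, GSO1, DIR9, DIR16, DIR18, MYB9, ASFT, ABCG1, ABCG2, LAC17, NRT1.5, SKOR, SCPL48, GL2, AED3 and MCM7. They also include CYCA2;3, CDKB1;1, KNOLLE, ORA47, RRTF1, JAZ10, HSP17.4, HSP101, DREB2A, TIP2;1, PYK10, U3D, AT2G47200 and AT1G67430. Of these genes, GL2, MCM7 and AT1G67430 overlap a locus on their own strand as well.

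Transcripts that mark the endodermis were more abundant in the sorted cells, and those of xylem, phloem and the conducting stele were scarce there. The 12 endodermis markers summed to 2491, 3725 and 3547 CPM in the sorted libraries, against 664, 841 and 748 CPM in whole roots. Every sorted library stood above every whole-root library, and 9 of the 12 markers were higher, 1 was lower and 2 were not called. The 7 xylem markers summed to 24.9, 11.4 and 21.5 CPM in sorted endodermis and 470, 625 and 587 CPM in whole roots. All 6 that were tested were lower. The phloem markers summed to 17.02, 9.89 and 15.4 CPM in sorted endodermis and 138, 149 and 158 CPM in whole roots, with 5 of 7 lower and the other two not called. Cortex markers were near 0 in the sorted cells, at 0.653, 1.55 and 1.27 CPM against 8.06, 9.20 and 5.18 CPM in whole roots, although they were low in both. The label of the sorted libraries was thus matched by their endodermis and vascular markers.

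**Figure D1:**
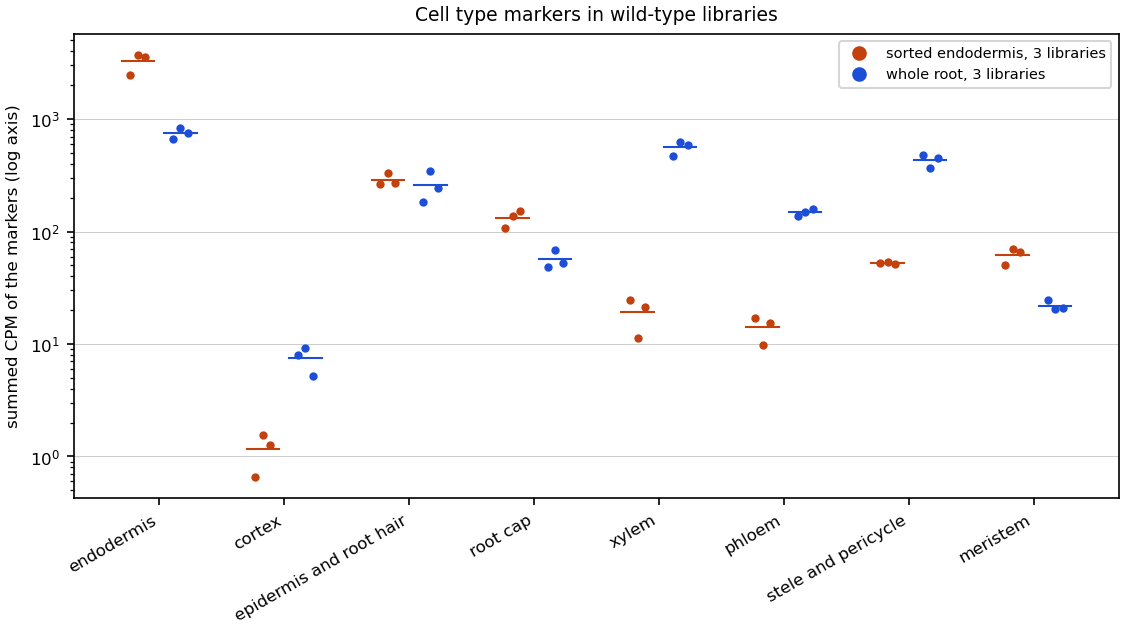
Summed CPM of cell type markers (log axis) in the 3 sorted endodermis libraries (left of each pair) and the 3 whole-root libraries (right), wild type, with bars at the means. Endodermis markers lie at 2491 to 3725 CPM in sorted libraries and 664 to 841 CPM in whole roots, xylem markers at 11.4 to 24.9 CPM and 470 to 625 CPM, and epidermis markers overlap.

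Markers of the outer and apical tissues did not follow the vascular ones. Root cap markers summed to 108, 139 and 152 CPM in sorted endodermis and to 48.6, 68.7 and 52.8 CPM in whole roots, with 4 of 6 higher and 2 lower. Epidermis and root hair markers summed to 265, 334 and 271 CPM in sorted endodermis and 184, 344 and 245 CPM in whole roots, groups that overlap, with 3 of 8 higher and 2 lower. Meristem markers summed to 50.7, 69.7 and 65.9 CPM in sorted endodermis and 24.5, 20.4 and 20.8 CPM in whole roots. Of these 4 markers 3 were tested, with 2 higher and 1, WOX5, lower. No marker of these 3 classes was at 0 in all sorted libraries. Whether such cells entered the gate was not tested, and in bulk RNA fewer cells of a type cannot be told apart from less RNA per cell.

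MYB36 (AT5G57620, TAIR10.1 chromosome 5, 23334767 to 23336632, 3 exons), the transcription factor gene for which the mutant is named, had 135, 185 and 268 CPM in sorted endodermis and 30.2, 34.6 and 32.4 CPM in whole roots. It was 196 ± 66.9 CPM in sorted endodermis against 32.4 ± 2.18 CPM in whole roots (SD, n = 3 libraries each), a log2 fold change of 2.60 (SE 0.23, adjusted p = 7.79e-06). In the mutant libraries it had 97.6, 192 and 101 CPM in sorted endodermis and 19.3, 18.0 and 16.6 CPM in whole roots. No label gives the position of the myb36-1 lesion, and a count over the whole locus is no check of it.

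Of 26 Casparian strip genes tested, 18 were higher, 2 lower and 6 not called in sorted endodermis, and their median log2 fold change was 1.58 against -0.01 for all loci. CASP1, a membrane scaffold protein that marks the strip domain, had 649, 1348 and 1052 CPM in sorted endodermis and 213, 293 and 240 CPM in whole roots, without overlap (log2 2.03, SE 0.25, adjusted p = 7.15e-05). CASP2, CASP4 and CASP5 rose by 1.82, 2.21 and 2.42 on the log2 scale. Lignin-polymerising peroxidases moved alongside. PER9 averaged 592 CPM in sorted endodermis and 82.2 CPM in whole roots (log2 2.85), and PER64, which sits at the strip, averaged 588 CPM and 104 CPM in the same order (log2 2.49). Genes of 4 further dirigent proteins, DIR9, DIR16, DIR18 and DIR24, rose by 2.31, 1.75, 1.23 and 1.87 on the log2 scale, as picked after their values were seen. The dirigent-type gene ESB1, which orders strip lignin, did not follow. It had 78.7, 71.4 and 122 CPM in sorted endodermis and 84.5, 116 and 95.3 CPM in whole roots, overlapping groups (log2 -0.12, adjusted p = 0.611), and its sign turned when sorted replicate 2 or whole-root replicate 2 was left out.

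The signalling arm that guides the strip was split. CIF2, a peptide ligand made in the stele, had 0.925, 0.684 and 0.364 CPM in sorted endodermis and 34.5, 50.5 and 50.1 CPM in whole roots (log2 -6.07, SE 0.29, adjusted p = 2.89e-07). Its receptor gene GSO1 (SGN3) had 59.7, 61.6 and 116 CPM in sorted endodermis against 71.0, 90.7 and 93.1 CPM in whole roots, and was not called. The kinase gene SGN1 (log2 0.65) and the oxidase gene RBOHF (log2 0.95), which act below the receptor, were higher. EXO70A1, an exocyst subunit that positions the scaffold proteins, was lower, at 38.1 CPM in sorted endodermis and 83.2 CPM in whole roots (log2 -1.13). GSO1, SGN1 and RBOHF were picked from the list after their values were seen.

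**Figure D2:**
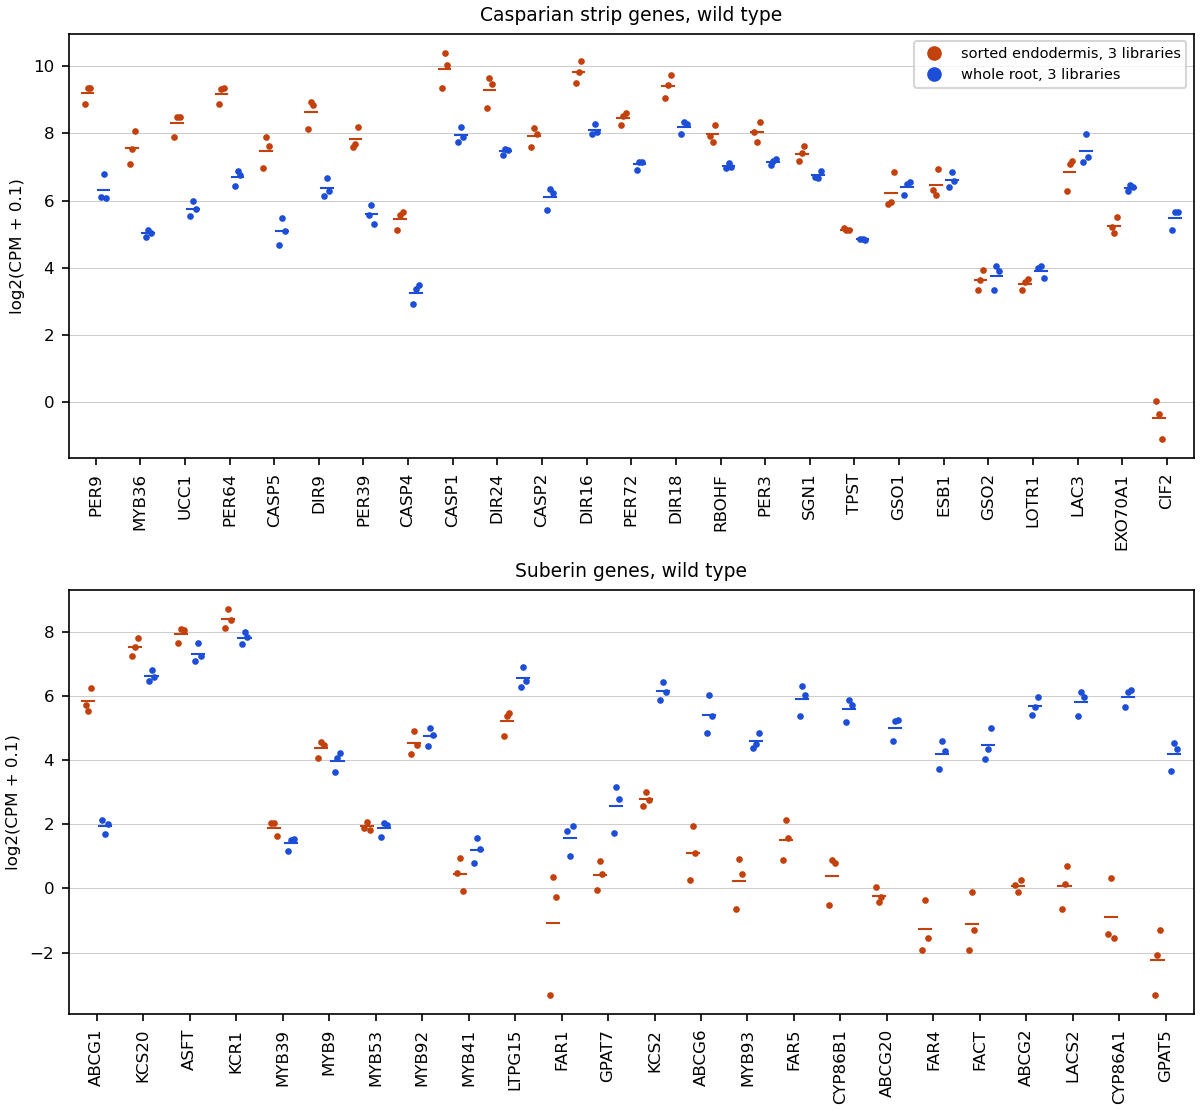
Levels of 25 of the 26 tested Casparian strip genes (top) and 24 suberin genes (bottom) as log2(CPM + 0.1) in each wild-type library, sorted endodermis left and whole root right of each gene, with bars at the means and genes ordered by fold change. Casparian strip genes mostly lie higher in sorted endodermis (median log2 fold change of all 26 genes 1.58) and suberin genes mostly lower (median -2.84).

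Genes of suberin synthesis went the other way: 15 of 24 were lower, 4 higher and 5 not called, and their median log2 fold change was -2.84. CYP86A1, the fatty acid hydroxylase of root suberin, had 0.272, 1.14 and 0.242 CPM in sorted endodermis and 49.9, 69.2 and 71.7 CPM in whole roots (log2 -6.75, SE 0.40, adjusted p = 7.97e-07). GPAT5, the acyltransferase that joins such acids to glycerol, had 0, 0.137 and 0.303 CPM in sorted endodermis and 12.4, 23.1 and 20.05 CPM in whole roots (log2 -6.97). These transcripts were thus at 1.14 CPM or less in every sorted library while whole roots held them at moderate levels. LACS2, an acyl-CoA synthetase, averaged 1.02 CPM in sorted endodermis and 57.6 CPM in whole roots. The transporters ABCG2, ABCG6 and ABCG20, which serve suberin export, fell by 5.75, 4.25 and 5.42 on the log2 scale. Their relative ABCG1 rose instead, with 52.5, 46.3 and 76.4 CPM in sorted endodermis and 4.29, 3.17 and 3.95 CPM in whole roots (log2 3.94, adjusted p = 7.09e-07). The other 3 called rises were smaller: KCS20, an elongase of very long fatty acids, by 0.91, ASFT, which adds ferulate to the polymer, by 0.60, and KCR1, a reductase of the elongation cycle, by 0.60 on the log2 scale. Of the MYB factors that act on suberin genes, MYB93 was lower (log2 -4.30), while MYB9, MYB39, MYB41, MYB53 and MYB92 were not called. The call of ASFT was lost with library totals (adjusted p = 0.0745) and without whole-root replicate 3 (adjusted p = 0.0502).

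Of the regulators that specify the ground tissue, 4 of 8 were higher, 2 lower and 2 not called (median log2 fold change 0.49). SCR, acting within the endodermis, had 234, 341 and 326 CPM in sorted endodermis and 72.5, 57.4 and 57.7 CPM in whole roots (log2 2.26, SE 0.18). Its relative SCL23 (log2 0.93) and the zinc finger gene BIB (log2 1.07) were also higher. SHR, transcribed in the stele and moving as a protein into the endodermis, had 38.6, 44.1 and 41.4 CPM in sorted endodermis and 38.9, 32.5 and 34.4 CPM in whole roots, overlapping groups (log2 0.23, adjusted p = 0.136). SHR supplied 41.4 CPM of the stele marker sum of 51.2 to 53.8 CPM in sorted endodermis, while the stele exporters below were near 0. MGP, a target of SHR and SCR, averaged 11.4 CPM in sorted endodermis and 12.0 CPM in whole roots and was not called. SCL3 (log2 -1.28) and NUC (log2 -1.78) were lower.

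Among 14 phenylpropanoid genes, which supply lignin precursors, 6 were lower (42.9%), 2 higher (14.3%) and 6 not called (median -0.39). PAL1, the entry enzyme, had 107, 113 and 210 CPM in sorted endodermis and 610, 782 and 683 CPM in whole roots (log2 -2.27), and PAL4 fell by 2.51. FAH1, which commits precursors to syringyl units, averaged 1.05 CPM in sorted endodermis and 19.2 CPM in whole roots (log2 -4.15). CCoAOMT1, a methyltransferase on the route to guaiacyl lignin, was higher, at 1960, 2824 and 3324 CPM in sorted endodermis and 742, 816 and 720 CPM in whole roots (log2 1.83).

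Genes of the vascular tissues were the most reduced lists. All 13 xylem genes tested were lower, with a median log2 fold change of -4.87, and 11 of 14 phloem genes were lower with a median of -3.89 and none higher, against 35.4% of all loci lower. The laccase gene LAC17, which polymerises xylem lignin, had 0.489, 0.228 and 0.364 CPM in sorted endodermis and 36.8, 64.3 and 55.7 CPM in whole roots (log2 -7.18). XCP2, a protease of dying vessel cells, averaged 1.24 CPM in sorted endodermis and 146 CPM in whole roots (log2 -6.89). The vessel regulator VND7 was low in both, at 0.288 CPM and 3.90 CPM in the same order. SWEET11, a sucrose exporter of the phloem, had 0.0544, 0.274 and 0.121 CPM in sorted endodermis and 36.2, 77.4 and 100 CPM in whole roots (log2 -8.77). SEOR1, a filament protein of sieve elements, held 2 counts in all sorted libraries together and 1305 in whole roots, a ratio of 0.0019 (exact 95% interval 0.00023 to 0.00689). The companion cell sucrose carrier SUC2 (log2 -3.78) and the phloem regulator APL, at 0.538 CPM in sorted endodermis and 8.60 CPM in whole roots, were reduced less. The vascular transcripts named here were above 0 in at least 1 sorted library each.

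In the stele and pericycle list, 8 of 11 genes were lower and 2 higher, with a median of -2.71. The genes that load ions into the xylem were nearly absent from sorted cells. NRT1.5, a nitrate transporter of the pericycle, had 1.09, 1.596 and 1.64 CPM in sorted endodermis and 712, 548 and 667 CPM in whole roots (log2 -8.79, SE 0.22, adjusted p = 6.27e-08). PHO1, which exports phosphate, had 1.79, 2.14 and 3.82 CPM in sorted endodermis and 326, 239 and 313 CPM in whole roots (log2 -6.84), and the potassium channel gene SKOR fell by 7.03. LBD16, a regulator of lateral root founding, was higher, at 18.3 CPM in sorted endodermis and 6.65 CPM in whole roots (log2 1.46).

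Of 11 root cap genes, 6 were higher (54.5%) and 3 lower (27.3%) in sorted endodermis (median 1.05). Of 19 epidermis and root hair genes, 5 were higher (26.3%), 6 lower (31.6%) and 8 not called (median -0.35). Among all loci 33.4% were higher and 35.4% lower, so the epidermal counts do not exceed these shares. BRN1, a NAC factor of the maturing root cap, had 59.4, 73.5 and 70.0 CPM in sorted endodermis and 9.88, 7.98 and 6.89 CPM in whole roots (log2 3.03, SE 0.17, adjusted p = 6.15e-07). SMB, its relative across the cap, averaged 33.4 CPM in sorted endodermis and 8.31 CPM in whole roots (log2 2.01). The root cap genes that fell, BFN1 (log2 -0.96), RCPG (log2 -1.15) and SCPL48 (log2 -1.78), are known from the last steps of cap cells. The calls of BFN1 and RCPG were each lost without 4 of the 6 libraries in turn, with adjusted p of 0.0506 to 0.19. WER, which sets the hairless epidermal fate, had 56.1, 76.3 and 48.7 CPM in sorted endodermis and 12.96, 11.8 and 11.6 CPM in whole roots (log2 2.31, adjusted p = 4.07e-06). GL2, which WER turns on, averaged 57.5 CPM in sorted endodermis and 18.0 CPM in whole roots (log2 1.68). CPC, a mobile repressor of the same circuit, rose by 1.83. RHD6, which starts hair formation, was also higher (log2 1.18) and was picked after its value was seen. The 6 called falls were in genes of hair growth, among them COBL9 at 24.5 CPM in sorted endodermis and 63.4 CPM in whole roots (log2 -1.37) and RSL2, a hair growth regulator, at 6.25 CPM and 48.9 CPM in the same order (log2 -2.97). The cortex gene AED3 averaged 0.365 CPM in sorted endodermis and 3.57 CPM in whole roots (log2 -3.26). CO2, the other classical cortex marker, was too low to test, with 4, 14 and 4 raw counts in sorted endodermis and 1, 3 and 1 in whole roots. With no filter on low counts, CO2 was called higher, opposite to AED3.

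Of 11 root meristem genes, 6 were higher, 1 lower and 4 not called (median 0.71), and genes of S phase and mitosis were mostly higher by small amounts. PLT1, a master regulator of the stem cell niche, had 14.5, 23.62 and 26.1 CPM in sorted endodermis and 11.7, 8.46 and 10 CPM in whole roots (log2 1.09). RGF3, which encodes a meristem growth peptide, rose by 2.23, and AGL42, a marker of the niche, by 2.09, and UPB1, a regulator of the exit from division, averaged 170 CPM in sorted endodermis and 37.1 CPM in whole roots. WOX5, transcribed in the quiescent centre, was lower, at 0.218, 0.593 and 0.364 CPM in sorted endodermis and 2.43, 2.21 and 1.93 CPM in whole roots (log2 -2.44). Of 20 S phase genes, 16 were higher and 2 lower (median 0.65), and of 24 mitotic genes 16 were higher and 1 lower (median 0.69). These 2 shares exceed the 33.4% of all loci that were higher, but the changes were small: in 1 fit of all 12 libraries 10 and 8 were higher, and against a 2-fold threshold 0 and 3. The replication licensing gene MCM7 averaged 95.7 CPM in sorted endodermis and 43.1 CPM in whole roots (log2 1.15). CYCA2;3, a cyclin that restrains endoreduplication, rose by 1.72 and the mitotic kinase subunit CDKB1;1 by 1.53. The cytokinesis syntaxin gene KNOLLE was lower, at 22.01 CPM in sorted endodermis and 67.2 CPM in whole roots (log2 -1.61). CYCB1;1 was higher by 0.68 with overlapping libraries, and its call was lost with library totals (adjusted p = 0.086) and without any of 4 libraries (0.0522 to 0.0669).

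**Figure D3:**
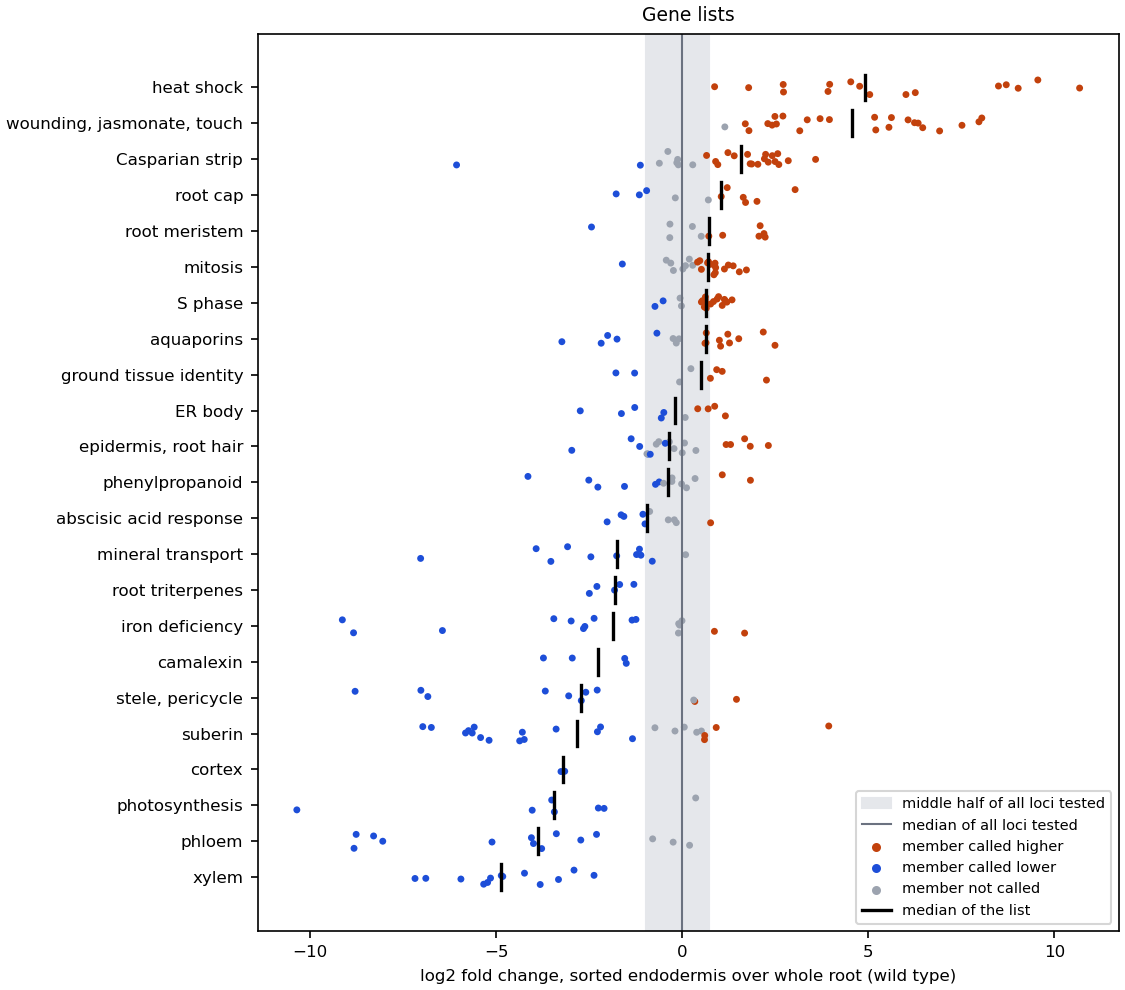
Log2 fold change of sorted endodermis over whole root in wild type for each tested member of 23 gene lists, with black bars at list medians and the interquartile range of all 19747 loci shaded. Heat shock (median 4.90) and wounding genes (4.56) lie farthest right, and phloem (-3.89) and xylem genes (-4.87) farthest left.

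The stress lists had the highest medians of the 23 lists. Of 24 wounding, jasmonate and touch genes tested, 23 were higher and none lower, with a median log2 fold change of 4.56. All 16 heat shock genes were higher, with a median of 4.90, against 33.4% of all loci. The wounding list summed to 3030, 2369 and 3338 CPM in sorted endodermis and 233, 252 and 248 CPM in whole roots. The heat shock list summed to 1586, 1181 and 1115 CPM in sorted endodermis and 92.0, 82.7 and 89.7 CPM in whole roots. Neither sum overlapped between the groups, and these genes are known from other work to respond to wounding and warming. Wall digestion, sorting and the cell type cannot be told apart as their source.

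In the jasmonate branch, LOX3, a lipoxygenase at the head of jasmonate synthesis, had 78.3, 24.4 and 62.5 CPM in sorted endodermis and 0.121, 0.304 and 0.219 CPM in whole roots (log2 7.97, SE 0.56, adjusted p = 2.01e-06). ORA47, an activator of that synthesis, had 198, 297 and 274 CPM in sorted endodermis and 0.121, 0.564 and 0.439 CPM in whole roots (log2 9.41). Both were abundant in every sorted library while whole roots stayed below 1 CPM. JAZ10, a repressor that jasmonate induces, averaged 92.3 CPM in sorted endodermis and 1.05 CPM in whole roots. JAZ7 was the only member not called, at 9.73, 2.23 and 8 CPM in sorted endodermis and 1.62, 3.64 and 3.73 CPM in whole roots, with overlap (adjusted p = 0.0656). Sorted replicate 2 was the lowest sorted library for LOX3, JAZ10 and JAZ7 alike. ERF13, an ethylene response factor, had 51.3, 28.0 and 49.5 CPM in sorted endodermis and 0.121, 0.26 and 0.0878 CPM in whole roots (log2 8.05). RRTF1, a redox-responsive factor, averaged 24.5 CPM in sorted endodermis and 0.129 CPM in whole roots (log2 7.52). The wall enzyme gene TCH4, induced by touch, averaged 250 CPM in sorted endodermis and 3.29 CPM in whole roots. JAZ10, JAZ7 and TCH4 were picked after their values were seen.

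Among chaperones, the cytosolic class II protein gene HSP17.6II had 70.8, 63.6 and 33.6 CPM in sorted endodermis and 0.0405, 0.0434 and 0 CPM in whole roots, where it held 2 counts in all. Its ratio was 2018 (exact 95% interval 558 to 16670, counting error only). HSP17.6A, in the same class, had 70.9, 47.6 and 31.1 CPM in sorted endodermis and 0.121, 0.13 and 0.0878 CPM in whole roots (log2 8.71). The mitochondrial HSP23.6 had 81.2, 16.6 and 22.6 CPM in sorted endodermis, where replicate 1 stood well above the others, and 0.081, 0.0434 and 0.0878 CPM in whole roots (log2 9.03). The plastid HSP21 had 8.76, 3.01 and 1.51 CPM in sorted endodermis and 0 counts in whole roots, at least 104-fold higher against 3 counts over that group. HSP101, a disaggregase, was abundant and even, at 238, 214 and 171 CPM in sorted endodermis and 9.27, 8.68 and 8.99 CPM in whole roots (log2 4.53). It was picked after its values were seen. The annotated heat shock family as a whole was not uniformly higher, since 43 of 93 members rose and 29 fell (median 0.27).

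**Figure D4:**
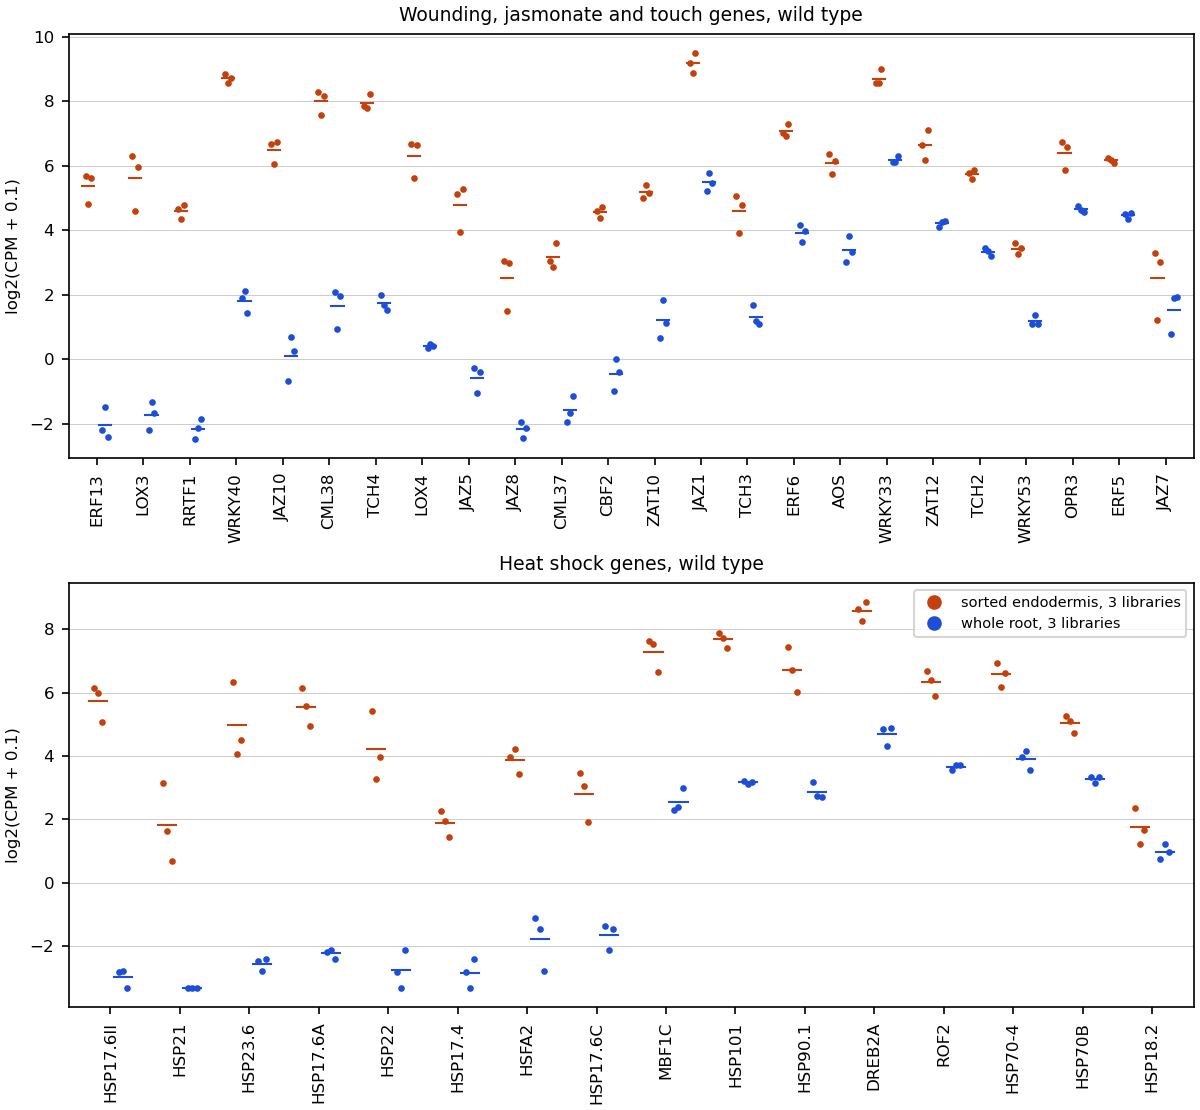
Levels of 24 wounding, jasmonate and touch genes (top) and 16 heat shock genes (bottom) as log2(CPM + 0.1) in each wild-type library, sorted endodermis left and whole root right of each gene, with bars at the means. All heat shock genes and all wounding genes except JAZ7 have their 3 sorted libraries above their 3 whole-root libraries.

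The 250 bases before the annotated start of each protein-coding gene were read from the TAIR10.1 genome and searched on both strands for the heat shock element GAANNTTC, the G-box CACGTG and the W-box TTGACC or TTGACT. No heat shock element or G-box in the windows shown overlaps a match to another of these motifs. The heat shock element was present before 5 of 16 heat shock genes (31.2%), against 9.47% of 26711 protein-coding loci and 14.1% of those higher by over 16-fold. It was also present before 5 of 25 wounding genes (20.0%). The G-box stood before 5 of 25 wounding genes (20.0%), against 6.58% of loci and 11.2% of those higher by over 16-fold. The W-box stood before 11 of 25 (44.0%), against 28.5% of loci and 32.3% of those higher by over 16-fold. A match is a description and not a bound site, and the other members simply lack these letters in this window. The windows of 3 heat shock genes with an element and of 3 wounding genes with a G-box are shown, because their transcripts were all higher in sorted endodermis and no other locus reaches into these windows. The window of AOS, a wounding gene with a G-box at -6 and no other locus in its window, is not shown. Sequences are RefSeq's on the strand of the gene, 5′ to 3′, with the heat shock element in capitals.
HSP17.4, small heat shock protein, chr3:16984868-16985117, minus strand: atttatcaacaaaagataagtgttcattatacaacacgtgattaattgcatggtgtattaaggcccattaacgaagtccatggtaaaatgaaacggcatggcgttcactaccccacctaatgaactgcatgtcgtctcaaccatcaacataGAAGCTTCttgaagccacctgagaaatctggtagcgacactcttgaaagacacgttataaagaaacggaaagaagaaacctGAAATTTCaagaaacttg
HSP21, chr4:13819972-13820221, minus strand: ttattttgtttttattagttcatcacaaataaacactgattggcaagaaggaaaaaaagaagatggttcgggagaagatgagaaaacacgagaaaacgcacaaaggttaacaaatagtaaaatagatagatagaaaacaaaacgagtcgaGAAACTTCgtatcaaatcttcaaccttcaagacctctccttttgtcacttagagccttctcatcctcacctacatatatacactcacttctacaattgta
DREB2A, dehydration and heat response factor, chr5:1601955-1602204, plus strand: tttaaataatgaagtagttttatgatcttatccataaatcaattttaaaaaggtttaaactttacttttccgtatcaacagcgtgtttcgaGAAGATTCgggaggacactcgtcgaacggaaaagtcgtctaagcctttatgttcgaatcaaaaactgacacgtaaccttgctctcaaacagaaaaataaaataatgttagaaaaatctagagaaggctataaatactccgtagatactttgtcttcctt
The next windows have the G-box in capitals. Other matches are left in lower case. The window of CBF2 also holds a heat shock element, and that of HSP17.4 holds a G-box. Those of CBF2 and JAZ8 each hold a W-box on the opposite strand, read here as ggtcaa.
RRTF1, chr4:16451626-16451875, plus strand: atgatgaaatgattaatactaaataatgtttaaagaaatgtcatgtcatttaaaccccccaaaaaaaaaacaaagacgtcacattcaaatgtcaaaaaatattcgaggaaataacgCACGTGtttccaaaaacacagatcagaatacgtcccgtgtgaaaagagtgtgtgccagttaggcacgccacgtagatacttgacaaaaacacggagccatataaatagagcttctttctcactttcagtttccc
CBF2, cold response factor, chr4:13016236-13016485, minus strand: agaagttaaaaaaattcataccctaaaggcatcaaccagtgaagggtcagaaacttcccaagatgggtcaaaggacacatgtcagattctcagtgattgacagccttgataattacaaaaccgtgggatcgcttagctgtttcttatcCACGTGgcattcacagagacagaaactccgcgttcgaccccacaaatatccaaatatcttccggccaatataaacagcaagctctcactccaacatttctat
JAZ8, jasmonate repressor, chr1:10596102-10596351, plus strand: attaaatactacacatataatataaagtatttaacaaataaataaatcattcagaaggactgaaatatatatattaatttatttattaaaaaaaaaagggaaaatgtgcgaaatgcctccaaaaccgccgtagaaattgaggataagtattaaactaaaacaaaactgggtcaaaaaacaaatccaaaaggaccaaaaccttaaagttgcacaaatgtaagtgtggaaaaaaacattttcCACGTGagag

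The elements lie -99 and -18 bases from the start in HSP17.4, -100 in HSP21 and -159 in DREB2A, and the G-boxes at -134 in RRTF1, -102 in CBF2 and -10 in JAZ8, counting to the first base of the match. HSP17.4 had 4.73, 3.78 and 2.61 CPM in sorted endodermis and 0.0405, 0 and 0.0878 CPM in whole roots (log2 6.26). DREB2A had 401, 309 and 468 CPM in sorted endodermis and 28.8, 19.8 and 29.3 CPM in whole roots (log2 3.92). CBF2 had 24.2, 20.8 and 26.3 CPM in sorted endodermis and 0.405, 0.911 and 0.658 CPM in whole roots (log2 5.17), and JAZ8 had 8.27, 2.74 and 7.88 CPM in sorted endodermis and 0.162, 0.0867 and 0.132 CPM in whole roots (log2 5.55). None of these groups overlapped. HSP17.6II, HSP17.6A and HSP23.6, among the 10 largest rises, have no match to the element in their windows.

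Genes of iron uptake and mineral transport were mostly lower. Of 16 iron deficiency genes, 10 were lower and 2 higher (median -1.86). IRT1, the main iron importer of the epidermis, had 0.218, 0.0912 and 0.242 CPM in sorted endodermis and 60.8, 131 and 58.3 CPM in whole roots (log2 -8.84, SE 0.50, adjusted p = 5.92e-07). CYP82C4, an enzyme of coumarin synthesis, held 1 count in the sorted libraries together and 924 in whole roots, although 22.1% of its transcript is repeated elsewhere in the genome. PYE, a regulator of iron balance in the stele, was higher, at 22.2 CPM in sorted endodermis and 6.95 CPM in whole roots (log2 1.67), and so was the iron and copper carrier OPT3 (log2 0.86). In the mineral transport list 10 of 11 genes were lower and none higher (median -1.76). AMT1;2, an ammonium transporter known from endodermis and cortex, had 0.163, 0.593 and 0.364 CPM in sorted endodermis and 63.9, 41.0 and 48.5 CPM in whole roots (log2 -7.03). NRT1.1, the nitrate transporter and sensor, fell by 3.53, and PHT1;1, a phosphate importer, by 3.93, with 49.9% of the PHT1;1 transcript shared with other loci.

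Aquaporins, the water channels, were divided, with 10 of 18 higher (55.6%) and 5 lower (27.8%), against 33.4% and 35.4% of all loci (median 0.62). PIP1;2 had 1609, 4033 and 2822 CPM in sorted endodermis and 877, 1223 and 856 CPM in whole roots (log2 1.52). PIP2;3 averaged 865 CPM in sorted endodermis and 154 CPM in whole roots (log2 2.49), but 21.6% of its transcript is repeated in other loci. TIP2;1, a vacuolar channel, rose by 2.18. PIP2;6 (log2 -3.24), TIP2;2 (log2 -2.18) and PIP1;5 (log2 -2.01) fell. Against a 2-fold threshold only 2 aquaporins were higher and 4 lower.

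Defence and storage metabolism varied by pathway. PYK10, the main glucosidase of ER bodies, was among the 5 loci with the highest CPM per kb of exon in both groups, with 10190, 10630 and 10270 CPM in sorted endodermis and 14480, 14440 and 17050 CPM in whole roots (log2 -0.56). Its relatives BGLU21 (log2 0.87) and BGLU22 (log2 1.16) were higher, while the lectins that bind it were lower, with JAL33 at 77.5 CPM in sorted endodermis and 519 CPM in whole roots (log2 -2.74). In all, 4 of 10 ER body genes were higher (40%) and 5 lower (50%), against 33.4% and 35.4% of all loci. The 5 root triterpene genes tested were all lower (median -1.82). THAS1, thalianol synthase, had 129, 90.2 and 165 CPM in sorted endodermis and 250, 910 and 721 CPM in whole roots (log2 -2.29), and whole-root replicate 1 was the lowest of its group. MRN1, marneral synthase, averaged 80.3 CPM in sorted endodermis and 283 CPM in whole roots with overlap, and its call was lost without sorted replicate 2 (adjusted p = 0.0543). All 4 tested genes of camalexin and indole metabolism were lower (median -2.25), among them CYP79B3 at 5.68 CPM in sorted endodermis and 75.6 CPM in whole roots. Of 10 abscisic acid response genes, 5 were lower (50%) and 1 higher (10%), against 35.4% and 33.4% of all loci. COR47, a dehydrin, averaged 1202 CPM in sorted endodermis and 3570 CPM in whole roots (log2 -1.57). Nuclear photosynthesis genes were lower in 6 of 7 cases (median -3.44). RBCS1A, the small subunit of Rubisco, had 0 counts in sorted endodermis and 11.1, 4.08 and 7.94 CPM in whole roots, at least 148-fold lower.

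By the fixed rule, the 10 largest rises included 6 loci that no list held. DDF1, a DREB-type factor, had 12.9, 8.98 and 12.4 CPM in sorted endodermis and 0 counts in whole roots, at least 264-fold higher. The uncharacterized AT1G73510 was at least 177-fold higher, and the F-box gene AT5G15660 had a ratio of 1234 (exact 95% interval 221 to 48790). AT4G33930, a cupredoxin, averaged 62.0 CPM in sorted endodermis and 0.0842 CPM in whole roots, with 22.4% of its transcript repeated. BHLH92 (log2 8.87) and NAC019 (ratio 478, interval 163 to 2319), both transcription factors, were the other two. Of the 10 largest falls, 9 had 0 counts in every sorted library. UMAMIT31, an amino acid transporter family member, had 24.8, 21.9 and 28.4 CPM in whole roots and was at least 473-fold lower in sorted endodermis. The pectin lyase gene AT1G05310 was at least 259-fold lower, the triterpene synthase gene AT5G36150 at least 212-fold, and the sugar transporter gene SWEET3 at least 155-fold. WAKL3, AT2G47200, ALD1 and GLIP2 were at least 157-fold, 147-fold, 146-fold and 140-fold lower. MLP43 had 0.109, 0.0456 and 0.0606 CPM in sorted endodermis and 102, 100 and 143 CPM in whole roots (log2 -10.56).

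Noncoding and organelle transcripts also differed in level. Of 30 snoRNA loci tested, which guide rRNA modification, 25 were higher and 1 lower in sorted endodermis (median 4.02), and of 11 snRNA loci 10 were higher and none lower (median 2.93). U3D snoRNA had 565, 3384 and 974 CPM in sorted endodermis and 93.9, 132 and 104 CPM in whole roots, but 62.2% of its sequence is repeated in the genome. The RNA kit differed between the groups, and its part was not tested. In the sorted libraries the locus with the most counts was AT2G16586, annotated as an uncharacterized protein and 44.0% repeated, at 48590, 58180 and 37950 CPM in sorted endodermis and 8158, 7087 and 6104 CPM in whole roots (log2 2.76). AT1G15405, an RNA of no stated class with a locus overlapping it on the same strand, averaged 3016 CPM in sorted endodermis and 264 CPM in whole roots. Per kb of exon, GAPC1, a glycolytic enzyme, held 3185 CPM in sorted endodermis and 2948 CPM in whole roots and was not called. Loci annotated as ribosomal proteins were more often higher, 188 of 313 with 52 lower (median 0.71). Fold changes also ran with exon length over all loci: of the shortest 6534, 2672 were higher and 1888 lower (median 0.25), and of the longest 6528, 1657 were higher and 2739 lower (median -0.24). The part of length in the noncoding and ribosomal protein counts was not tested.

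Mitochondrial loci took 3.39%, 2.84% and 4.29% of counts in sorted endodermis and 1.22%, 1.16% and 1.15% in whole roots. A single locus, ATMG00020, carried most of the excess, with 24000, 17770 and 32970 CPM in sorted endodermis and 593, 662 and 593 CPM in whole roots (log2 5.34, SE 0.27, adjusted p = 3.59e-07). Without it, the other 58 mitochondrial loci summed to 12229, 13667 and 13090 CPM in sorted endodermis and 10658, 10197 and 9945 CPM in whole roots. ATMG01390 had 709, 648 and 1033 CPM in sorted endodermis and 84.2, 176 and 136 CPM in whole roots. The annotation used here gives neither locus an RNA class, so whether they are ribosomal RNA is not known from it and the mitochondrial share cannot be read as messenger RNA. Both were singled out after their values were seen. Plastid loci were lower in 36 of 74 cases and higher in 10 (median -0.58).

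The myb36-1 libraries give the same difference in samples that the wild-type values do not use. There, 2384 of 19347 loci were higher and 3343 lower in sorted endodermis, 29.6% called in all. Of the 6587 loci higher in wild type, 1639 were higher in the mutant too, 347 were lower and 4307 were tested but not called. Of the 6983 lower in wild type, 2358 were lower in the mutant, 240 higher and 4254 not called. The mutant pair had a call for 29.6% of its loci and the wild-type pair for 68.7%. A locus not called in the mutant is therefore not shown to lack the difference. The stress lists held: 21 of 24 wounding genes and 13 of 14 heat shock genes were higher in mutant sorted cells, with medians of 5.31 and 4.53. Xylem genes were lower in 11 of 14 cases and phloem genes in 10 of 14, with none higher.

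The difference between the genotypes was tested directly as an interaction, which called 5758 of 20302 loci (28.4%), 2955 (14.6%) with a larger value in wild type and 2803 (13.8%) with a smaller one. Root cap, epidermal and ER body genes stood out by count, with 9 of 11, 14 of 19 and 10 of 10 members larger in wild type and none smaller. BRN1 had 0.621, 0.378 and 0.291 CPM in mutant sorted endodermis and 7.51, 9.31 and 7.66 CPM in mutant whole roots, the reverse of its order in wild type (difference 7.18 on the log2 scale, adjusted p = 4.36e-07). WER had 0.0887, 3.15 and 0.145 CPM in mutant sorted endodermis and 11.3, 11.1 and 11.9 CPM in mutant whole roots (difference 5.71, adjusted p = 0.000434). PYK10 had 798, 572 and 856 CPM in mutant sorted endodermis and 13040, 12100 and 13460 CPM in mutant whole roots (difference 3.55). In whole roots BRN1 averaged 8.16 CPM in the mutant and 8.25 CPM in wild type, scaled in separate fits, so the genotypes were apart in the sorted libraries. Suberin genes went the other way, with 17 of 24 smaller in wild type and 2 larger, and Casparian strip genes with 12 of 27 smaller and 2 larger. Of the root cap markers, BRN1, SMB, BFN1 and RCPG averaged 0.43, 0.4625, 0.234 and 0.175 CPM in mutant sorted endodermis. FEZ did not follow them, at 3.90, 0.252 and 12.8 CPM there and 2.26, 2.00 and 1.67 CPM in mutant whole roots. Whether the gate took in different cells was not tested.

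**Figure D5:**
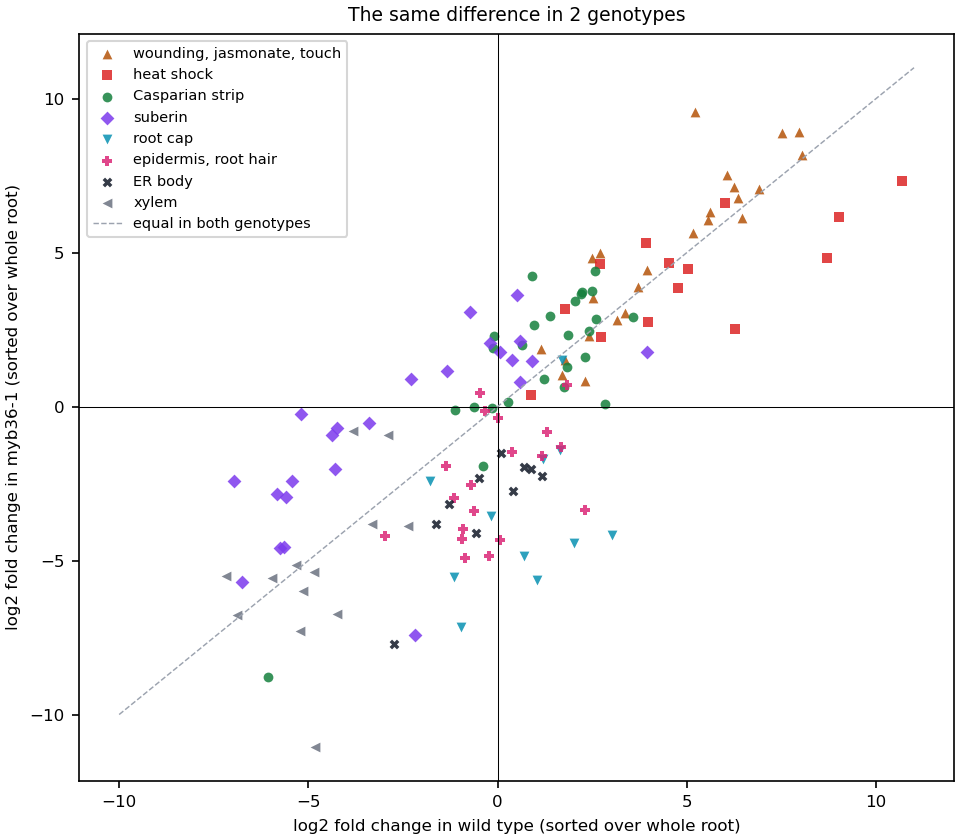
Log2 fold change of sorted endodermis over whole root in wild type (x) and in myb36-1 (y) for members of 8 gene lists, with a dashed line where the genotypes are equal. Heat shock, wounding and xylem genes lie in the same quadrant in both, while root cap genes such as BRN1 (3.03 and -4.18) and SMB (2.01 and -4.42) are higher in wild type and lower in the mutant.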

How the data were processed

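RNA-seq libraries of 2 wild-type groups, 3 of sorted endodermis and 3 of whole root, were analysed; the labels call them biological replicates and say nothing more of their source. The authors deposited raw counts per locus without normalization for all 12 libraries of the series, and those counts were used. The submitters' processing notes name HTSeq, TopHat2, SAMtools, Cuffdiff and Cufflinks and the build TAIR10, without roles or versions. No source used here gives the use of strand in counting. The other deposited tables were not used. Of 33602 loci, 32835 were found in the TAIR10.1 RefSeq annotation, which gave symbols, coordinates and overlaps. The share of a transcript repeated elsewhere was the share of its 31-base words found at another place in that genome.

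The test was edgeR's quasi-likelihood F-test (edgeR 4.0.16, R 4.3.3, TMM, filterByExpr by group, Benjamini-Hochberg over all loci tested, called at adjusted p under 0.05). The SE is the absolute log2 fold change divided by the square root of F. CPM were scaled by TMM, and each mean ± SD is over 3 libraries. A group at 0 counts was set to 3 counts over the group, giving a bound; for 1 to 3 counts a ratio with an exact 95% interval is given. A count of 0 in a library allows 0.121 to 0.182 CPM; floors and intervals cover counting error only. The same test was run on the 6 myb36-1 libraries, and an interaction over all 12. No pair of replicates agreed within sampling noise (chi-square per degree of freedom 15.5 to 44.7). On simulated counts with 200 changed loci among 19747, the test found 59% of 2-fold and 96% of 4-fold changes and called 0.0512% of unchanged loci. In the data 68.7% of loci were called, far more than were changed there, so these shares need not hold for them.

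The 23 lists (339 members) and the comparison itself were chosen with earlier results of these data known. Lists are described by counts and medians, with no set test. Named genes were MYB36; the 10 largest called rises and falls without overlap whose mean reached 5 CPM in either group; the 5 nuclear loci with most CPM per kb in each group; up to 3 called rises and falls of each list; and a fixed set of markers. Of these, 2 genes are not reported here. Others are said to be picked after their values were seen, which also holds for ABCG2, ABCG6, ABCG20, KCR1, the suberin MYB factors and the genes whose promoters are shown. No promoter table was used; windows were read from the TAIR10.1 genome. Alternatives were other scalings, DESeq2 1.42.0, limma 3.58.1 (voom), other filters, 1 fit of 12 libraries, a replicate block, a 2-fold threshold, thinning and leaving out each library.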

Additional observations from a re-analysis of the deposited data

Results flagged for a closer look

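For 21 of the fixed genes and of the 20 largest changes, the wild-type difference between sorted endodermis and whole root differed from that in myb36-1 by the interaction test (edgeR adjusted p under 0.05). The same test called 28.4% of all 20302 loci, so a call alone is not unusual. The values are wild type minus myb36-1 on the log2 scale. Root cap and epidermal genes had positive values, with BRN1 at 7.18 (adjusted p = 4.36e-07), SMB at 6.35 (adjusted p = 8.89e-05), WER at 5.71 (adjusted p = 0.000434) and GL2 at 2.98 (adjusted p = 4.28e-05). All 4 were higher in sorted endodermis than in whole roots in wild type and had negative fold changes in the mutant. Among the largest rises, AT5G15660 had 4.22, HSP17.6A 3.87 and ORA47 1.98, each higher in sorted cells of both genotypes.

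Endodermal genes had negative values, so their rise in sorted cells was smaller in wild type. PER64 had -1.27, CASP1 -1.40, CASP4 -1.44 and SCR -1.77, all with positive fold changes in both genotypes. MGP at -1.41 and ESB1 at -2.02 were not called in wild type and were higher in mutant sorted cells than in mutant whole roots. These values do not compare levels between genotypes. ESB1 averaged 37.95 CPM in mutant sorted cells and 10.3 CPM in mutant whole roots. In wild type, scaled in a separate fit, it averaged 90.6 and 98.7 CPM. CASP1 averaged 85.9 and 7.99 CPM in the mutant and 1016 and 248 CPM in wild type. In sorted cells SCR (843 against 300 CPM) and MGP (43.8 against 11.4 CPM) were higher in the mutant.

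GPAT5 had -4.55 and AED3 -4.03, and WOX5, which was lower in wild-type sorted cells and higher in mutant ones, had -4.53. Among the largest falls, MLP43 had -2.62, UMAMIT31 -4.57, AT1G05310 -4.58, ALD1 -8.45 and GLIP2 -13.2. Of these falls, UMAMIT31, AT1G05310, ALD1 and GLIP2 had 0 counts in wild-type sorted cells, so the size of their difference depends on the prior count of the fit. GLIP2 was higher in mutant sorted cells (log2 3.14). The mutant sorted libraries are separate samples, and their part in these differences was not tested further.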

How the results depend on the processing

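The 13570 calls became 5512 (2104 higher, 3408 lower) against a 2-fold threshold. Over the other alternatives they ranged from 10474 in 1 fit of all 12 libraries to 14192 with no filter on low counts. DESeq2 called 13925, of which 13245 were shared, and leaving out each library in turn gave 11958 to 13416. Under the replicate block 13564 loci were called. Same-numbered libraries had correlations of deviations of 0.131, 0.0411 and 0.109. Sorted replicate 2 correlated at 0.0434 with whole-root replicate 1, hardly more than with its own number. Correlations this small cannot decide whether the numbers pair the samples, and the labels do not say. In the mutant pair the block gave 1559 higher and 2369 lower. The interaction gave 5724 calls with DESeq2 size factors and 5072 with the block.

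Signs turned only for genes that were not called: AT1G67430, a ribosomal protein gene, was -0.081 with library totals and -0.060 to 0.323 over the omissions of 1 library, GAPC1 was -0.117 with library totals, and ESB1 was -0.397 to 0.032 over the omissions of 1 library (0.00191 without whole-root replicate 2). The cause was not tested. Library totals lowered S phase and mitotic rises to 12 and 12. Cortex genes had no tested member at 5 CPM, nor organelle lists without organelle loci. Depth limits loci near 1 CPM.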
